A study of Mus musculus with 9 samples.

Results

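The semaphorins, plexins, Robo receptors, Slits, Unc5 receptors and netrins were followed in bone marrow (BM) endothelial cells (ECs) of normal mice. Members were the rows of the read count table whose gene name is Sema, Robo, Slit or Ntn followed by a digit, Plxn followed by a, b, c or d, or Unc5 followed by a, b, c or d and nothing more. The rule took 46 of 46078 rows, namely 20 semaphorins, 9 plexins, 4 Robo, 3 Slit and 4 Unc5 genes, 3 netrins (Ntn1, Ntn4 and Ntn5) and 3 antisense transcripts of the Plxna4 locus (Plxna4os1, Plxna4os2 and Plxna4os3). The libraries were RNA-seq of CD45-Ter119-CD31+ cells from the BM of untreated wild type B6 mice, 4 libraries of Sca-1+ cells and 5 of Sca-1- cells, with no transgene named in the labels. The names of libraries 13, 14 and 22 carry the token CD452, library 10 carries a like one, and libraries 8, 15, 16 and 19 carry wt, and the labels do not explain these tokens. The age of the animals is not given in the labels, which also do not say whether each library came from its own animal, so the p-values measure the spread between these libraries, which may be technical. Libraries are named here by the end number of their label, 7, 13, 15 and 19 for Sca-1+ and 8, 10, 14, 16 and 22 for Sca-1-, and values of 1 gene are always given in that order.

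Semaphorins are secreted or membrane-bound ligands, first known for steering growing axons, and plexins are their receptors. The secreted class 3 semaphorins mostly reach A-type plexins through the co-receptors neuropilin-1 and neuropilin-2, while the classes numbered 4 to 7 are tied to the cell surface and bind plexins directly. Slits are secreted ligands of Robo receptors, and netrins are laminin-related ligands of Dcc, neogenin and the Unc5 receptors. In blood vessels the same families guide sprouts and set barrier function, with Robo4, Plxnd1 and Unc5b known as endothelial receptors.

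The 9 libraries held 21581653 to 25959818 reads assigned to genes. Levels are CPM, reads of a gene as a share of all assigned reads, with library sizes scaled by TMM factors of 0.581 to 1.22, and 3 reads, taken as the floor of detection, amounted to 0.0995 to 0.209 CPM. Ly6a, which encodes Sca-1, was 1631-fold higher in Sca-1+, with means of 1132 and 0.678 CPM. Pecam1, which encodes CD31, overlapped between the fractions, with means of 1397 and 835 CPM (adjusted p = 0.25 in edgeR). Ptprc, which encodes CD45, was 34.4-fold lower in Sca-1+, with means of 0.842 and 28.8 CPM (adjusted p = 0.0069 in edgeR), so the Sca-1- libraries held CD45 RNA although the sort was for CD45- cells. The endothelial label held for Sca-1+ but was weak in Sca-1-, where 13 endothelial markers summed to 723 to 2593 CPM against 7058 to 8959 CPM, and 41.9 to 91.5% of the Sca-1- sum was Esam, a gene that platelets also express. Without Esam the sums were 220.3 to 486.4 and 5888 to 7755 CPM, a ratio of 18.9 between the means. The 7 arterial markers summed to 790 to 1037 CPM in Sca-1+ and 9.06 to 37.3 in Sca-1-, and the 4 sinusoidal markers to 1071 to 1435 and 27.4 to 171. Sca-1- libraries carried more megakaryocyte and platelet RNA (24754 to 104054 against 28.3 to 79 CPM over 12 markers), leukocyte RNA (1821 to 3553 against 4.38 to 52.2 over 8 markers) and erythroid RNA (568 to 2360 against 102 to 226 over 8 markers, 5 of them lower in Sca-1+). The sum of 8 marrow stromal and osteoblast markers (3308 to 41637 against 410 to 2279 CPM) was carried in Sca-1- by Col1a1 and Col1a2, which were lower in Sca-1+ with Bglap, while Cxcl12, Lepr and Adipoq of the same list were higher. The monocyte and macrophage sum (784 to 2460 against 14.1 to 168) was carried in Sca-1- by Lyz2, and the other 5 markers did not pass the test. Smooth muscle and pericyte markers (214 to 1440 in Sca-1+, 18.5 to 59.6 in Sca-1-, with 6 of 9 higher) went the other way. The T cell sum (11.6 to 20 and 0.628 to 4.07) was Lck alone in Sca-1+, where Cd3e, Cd3d and Cd3g were at 0, and neutrophil markers (8.24 to 764 and 132 to 754) overlapped. Sca-1+ library 19 held the highest neutrophil sum and Sca-1- library 10 the highest megakaryocyte and platelet sum. Their part in the results that follow was not tested, and in sorted bulk RNA fewer cells of a type and less RNA per cell cannot be told apart. The running numbers that open the labels also fell into separate ranges for the fractions, so any batch they mark and the fraction cannot be told apart.

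Of the 43 protein-coding members, 34 had enough reads to be tested, by edgeR's quasi-likelihood test, adjusted by Benjamini-Hochberg over all 15937 genes tested. At an adjusted p under 0.05, 15 members were higher in Sca-1+, among them Robo4, Plxnd1, Plxna2, Sema3f, Sema3g and Sema6a, and 7 were lower, among them Plxna4, Plxnc1, Sema3d and Sema4d. The higher members were 44.1% of those tested, against 23.3% of all genes, and the lower members 20.6%, against 21.4% of all genes, so that the share of lower members lay near the background. The median log2 fold change of the members was 0.88 and that of all genes 0.07, and the former is the same with Plxna3 at its lower bound given below. Every Sca-1+ library lay above every Sca-1- library for 16 protein-coding members, where 24.8% of all genes did so, and the reverse held for 5, where 18.8% of all genes did so. The 15 higher members and these 16 include Plxna3, which passed the filter on reads through Sca-1+ alone. The same filter was applied to all genes. Libraries 19 and 10, named above for their marker sums, were also left out together. Without them 14 rather than 16 member rows were higher, antisense transcripts included, and 8 were lower in both cases. Over all genes, 2945 rather than 3721 were higher and 3132 rather than 3416 were lower. The 9 protein-coding members not tested were Sema3e, Sema4f, Sema4g, Sema5b, Sema6c, Slit1, Unc5c, Unc5d and Ntn5, none of which passed 2.1 CPM in any library, and Sema4f had no read in any.

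**Figure D1:**
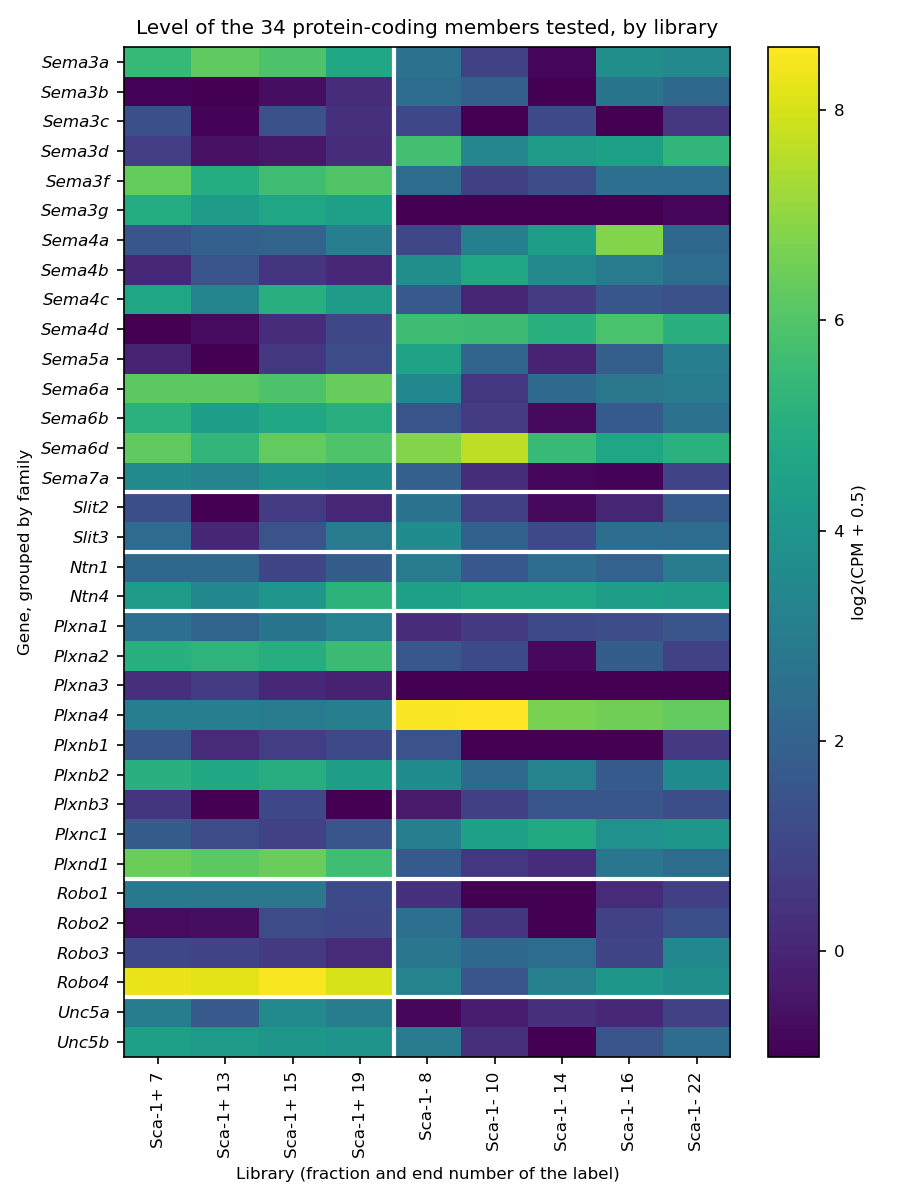
Level of each tested protein-coding member in each library, as log2(CPM + 0.5) on a colour scale, with rows grouped by family and a white line between the 4 Sca-1+ and the 5 Sca-1- libraries. Robo4 is brightest in Sca-1+ and Plxna4 in each Sca-1- library but 16. Sema4a stands out in Sca-1- library 16 alone, where it is at 111 CPM and Plxna4 at 91.1 CPM.

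Upstream sequences are shown for the called members with the largest and the smallest fold changes among those of at least 10 CPM in one fraction. Robo4 and Sema3g were the most strongly raised in Sca-1+ and Sema4d and Sema3d the most strongly reduced. They run 5′ to 3′ and are the part of the 250 bases before the first RefSeq start (GRCm38.p6) that lies outside the exons which GENCODE M21 gives the gene. Capitals mark a match, on either strand, to AGGAAG or CCGGAA, letters that ETS factors such as Erg and Fli1 recognise. The Robo4 window is chr9:37401722-37401896 on the plus strand, the Sema3g window chr14:31217623-31217859 on the plus strand, the Sema4d window chr13:51756803-51756933 on the minus strand, inside the longer GENCODE gene, and the Sema3d window chr5:12382916-12383165 on the plus strand.
Robo4: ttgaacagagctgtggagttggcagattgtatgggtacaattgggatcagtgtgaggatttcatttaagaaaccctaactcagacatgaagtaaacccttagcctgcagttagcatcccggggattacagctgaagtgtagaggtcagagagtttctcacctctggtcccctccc
Sema3g: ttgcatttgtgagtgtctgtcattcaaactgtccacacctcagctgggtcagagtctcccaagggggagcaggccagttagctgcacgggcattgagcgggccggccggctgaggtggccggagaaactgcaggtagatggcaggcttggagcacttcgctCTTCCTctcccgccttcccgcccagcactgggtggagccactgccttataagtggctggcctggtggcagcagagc
Sema4d: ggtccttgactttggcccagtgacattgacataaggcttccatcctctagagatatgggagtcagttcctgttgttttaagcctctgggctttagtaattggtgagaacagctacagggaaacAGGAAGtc
Sema3d: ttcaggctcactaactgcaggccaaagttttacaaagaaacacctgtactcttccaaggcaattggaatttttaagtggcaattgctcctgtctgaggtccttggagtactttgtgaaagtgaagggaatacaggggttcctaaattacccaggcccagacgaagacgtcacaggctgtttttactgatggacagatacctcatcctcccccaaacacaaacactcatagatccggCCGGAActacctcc
In the full windows AGGAAG occurred in 29.1% of the promoters of 27026 genes, in 5 of the 12 higher members that had a RefSeq window and in 4 of the 5 lower ones. The higher ones were Plxna3, Plxnd1, Robo4, Sema3a and Sema3g, and the Robo4 match lies in the part of its window not printed above. CCGGAA was in 12.3% of promoters, in 0 of the 12 and in 2 of the 5 (Sema3d and Sema4b). The GATA letters AGATAA were in 10.2% of promoters and in none of these 17 members, and the SOX letters ACAATG were in 10.9% of promoters, in 1 higher member (Sema3a) and in 1 lower member (Plxnc1). A match describes letters in the window only.

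Among the receptors, 8 of 15 tested were higher in Sca-1+ and 3 were lower, 53.3 and 20% against 23.3 and 21.4% of all genes. Robo4, the endothelial Robo receptor, was at 315, 293, 362 and 260 CPM in the Sca-1+ libraries and at 9.36, 2.37, 8.47, 16.6 and 13.4 CPM in the Sca-1- libraries. The fractions lay far apart, with a log2 fold change of 4.93 ± 0.48 (SE) and an adjusted p of 5e-05, or 30.4-fold. Robo1, a receptor for Slits, was also higher but sparse, with means of 5.38 and 0.534 CPM (log2 fold change 3.30 ± 1.07, adjusted p = 0.029, and 3.89 without Sca-1- library 22), and library 19 was low for it within Sca-1+. Its call was lost without Sca-1+ library 7, 13 or 15, at adjusted p-values of 0.061 to 0.067. Robo3, best known from commissural axons, was lower in Sca-1+, with means of 1.18 and 5.45 CPM and overlapping ranges (log2 fold change -2.20 ± 0.59, adjusted p = 0.012). Robo2 had means of 0.895 and 1.89 CPM and did not pass the test (adjusted p = 0.51).

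Plxnd1, an endothelial plexin that takes Sema3e without a neuropilin, measured 86.2, 72.7, 84.8 and 50.3 CPM in Sca-1+ and 2.82, 0.976, 0.678, 6.3 and 4.8 CPM in Sca-1-. It was 23.3-fold higher in Sca-1+ (log2 fold change 4.54 ± 0.62, adjusted p = 0.00029). For its ligand Sema3e no library passed 1.56 CPM. Plxna2, a receptor for class 6 semaphorins and, with neuropilins, for class 3, gave 33.9, 37.3, 31.4 and 47.2 CPM against 2.52, 1.74, 0.0847, 3.02 and 1.38 CPM. Its log2 fold change was 4.42 ± 0.67 (adjusted p = 0.00052), and Sca-1- library 14 held 2 reads. Plxnb2, which receives class 4 semaphorins, was at 33.3, 25.9, 31.3 and 20.5 CPM in Sca-1+ and at 11.9, 4.32, 9.32, 2.85 and 12.3 CPM in Sca-1-. The libraries of the fractions did not overlap, and the difference was 3.41-fold (adjusted p = 0.0072), smaller than for Plxnd1 and Plxna2. Plxna1 was higher at a lower level, with means of 6.04 and 1.54 CPM (adjusted p = 0.0066), and shares exon bases with Gm26811 on the opposite strand. Plxna3 had 11 to 32 reads in each Sca-1+ library and 0 in each Sca-1- library, which made it at least 4.71-fold higher against a floor of 3 reads per library (adjusted p = 0.0012). It passed the filter on reads through Sca-1+ alone, so it could not have been called lower. With a minimum count of 20 it was not tested, and 15 rather than 16 member rows were higher, antisense transcripts included. Plxnb1 (means of 1.48 and 0.647 CPM, adjusted p = 0.50) and Plxnb3 (0.609 and 1.70 CPM, adjusted p = 0.36) did not pass the test.

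Plxna4, a receptor for class 6 and class 3 semaphorins, was the leading plexin of the Sca-1- libraries. It was at 8.2, 8.13, 7.45 and 8.12 CPM in Sca-1+, an even level, and at 373, 386, 99.9, 91.1 and 77.7 CPM in Sca-1-, where libraries 8 and 10 stood above the other three. It was 25.8-fold lower in Sca-1+ (log2 fold change -4.69 ± 0.62, adjusted p = 0.00023). Libraries 8 and 10 were also the highest of all in megakaryocyte and platelet markers, at 84409 and 104054 CPM. The antisense transcript Plxna4os3, which shares 110 bases of exon with Plxna4 on the opposite strand, was lower too (means of 0.14 and 6.85 CPM, adjusted p = 0.00024). Since the use of strand in counting is not given in the sources used here, its reads cannot be told apart from reads of Plxna4 RNA. The shared bases are 110 of the 403 exon bases of Plxna4os3 and 110 of the 14103 of Plxna4. Plxna4os1 was higher in Sca-1+, with means of 5.86 and 1.61 CPM (adjusted p = 0.021, and 0.051 to 0.054 without Sca-1+ library 7, 13 or 15 or Sca-1- library 10), and Plxna4os2 was not tested. Plxnc1, the plexin that binds Sema7a, was at 3.03, 1.87, 1.38 and 2.4 CPM in Sca-1+ and at 8.04, 22.2, 27.6, 14.1 and 16.6 CPM in Sca-1-. It was 8.16-fold lower in Sca-1+ with no overlap (adjusted p = 0.00038), and it overlaps Gm48718 on the same strand by 115 bases.

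**Figure D2:**
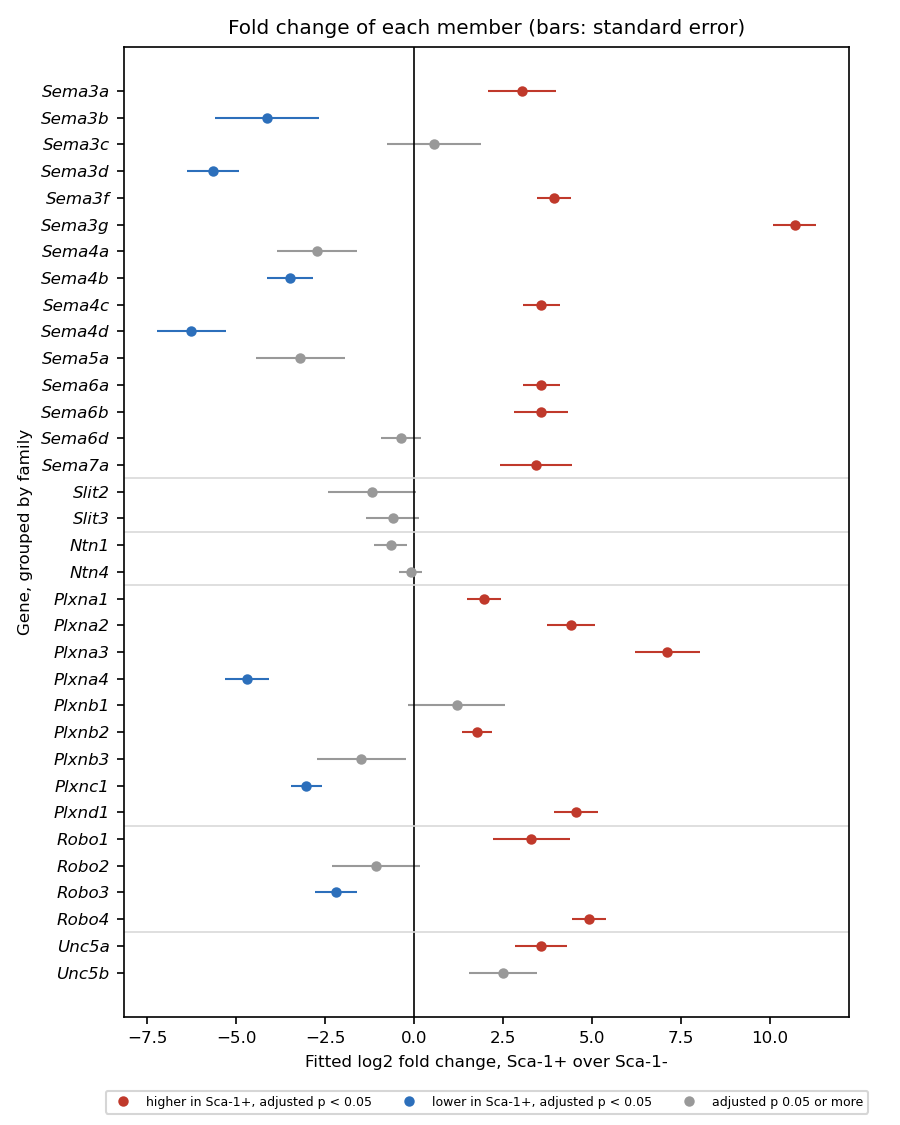
Fitted log2 fold change of each tested protein-coding member, Sca-1+ over Sca-1-, with its standard error as a bar, red for members higher and blue for members lower at an adjusted p under 0.05, grey for the rest. Plexins and semaphorins hold genes on both sides of 0, while Slits and netrins are all grey.

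Per length, the plexins as a whole did not separate the fractions. The summed level of the 9 plexins, in CPM per kilobase of exon (RPKM), was 17.7 ± 2.57 (SD, n = 4) in Sca-1+ and 18.8 ± 10.7 (SD, n = 5) in Sca-1-, with overlapping ranges. Their makeup differed in every library. Plxnd1 was 47.9 to 60.2% of the plexin sum in Sca-1+ and 0.429 to 8.5% in Sca-1-, while Plxna4 was 2.74 to 4% and 52.4 to 88.7%. Plxnb2 (18.4 to 21.5% against 1.8 to 15.2%) and Plxna2 (9.47 to 19.1% against 0.0402 to 1.73%) took larger shares in Sca-1+, and Plxnc1 (0.856 to 2% against 3.23 to 27%) a larger one in Sca-1-. The Robo sum, by contrast, was 58.5 ± 8.2 RPKM (SD, n = 4) in Sca-1+ and 2.84 ± 1.21 RPKM (SD, n = 5) in Sca-1-, and Robo4 made 98.9 to 99.4% of it in Sca-1+. In Sca-1- Robo4 made 40.6 to 90.4% of the sum and Robo3 made 6.27 to 54.6%. These shares do not depend on how libraries are scaled to each other.

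**Figure D3:**
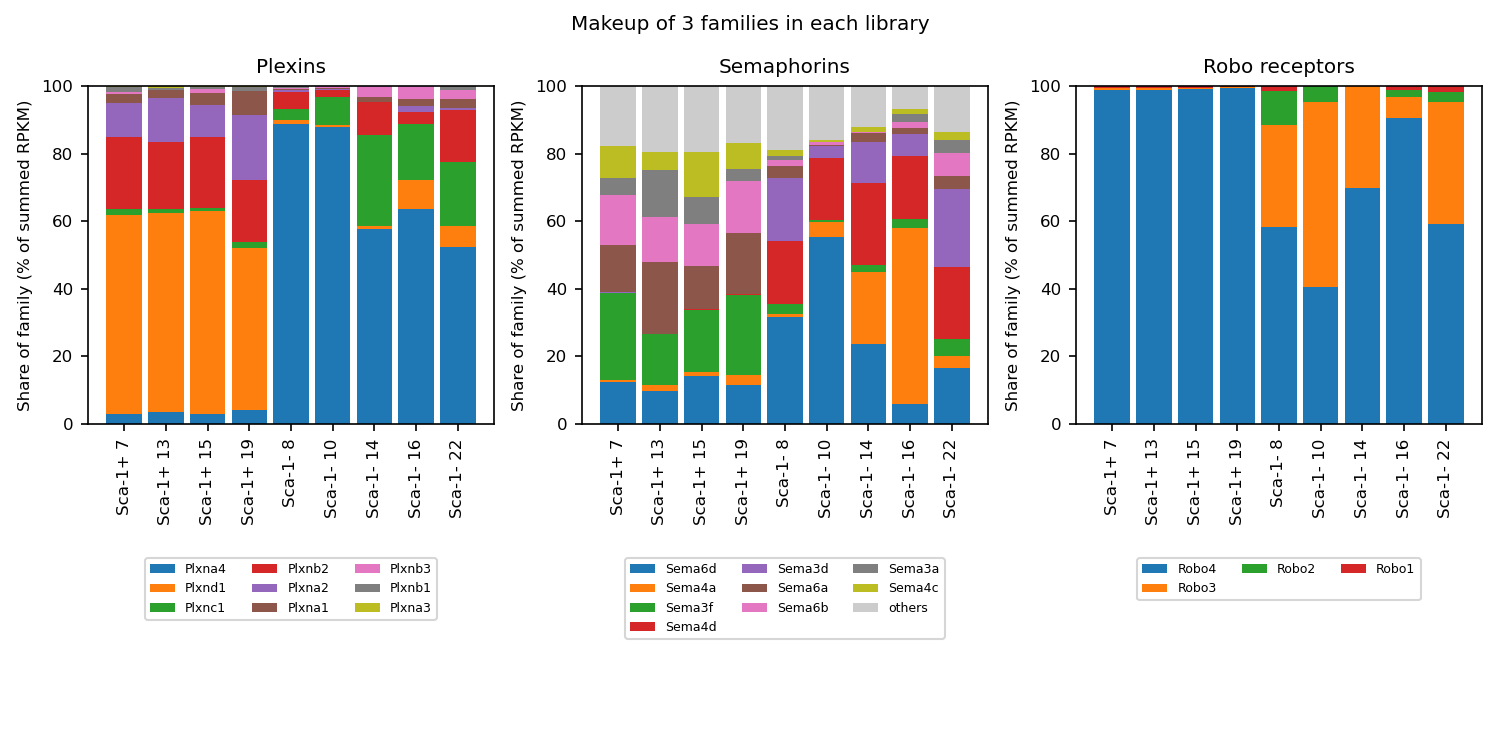
Share of each gene in the summed RPKM of its family, in percent, as stacked bars for each library, with plexins on the left, semaphorins in the middle and Robo receptors on the right. Plxnd1 makes 47.9 to 60.2% of plexin level in Sca-1+ and Plxna4 52.4 to 88.7% in Sca-1-, and Sema4d is visible in the 5 Sca-1- bars, at 18.2 to 24.5% of semaphorin level.

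The Unc5 receptors, which take netrins, summed to 4.63 ± 0.845 RPKM (SD, n = 4) in Sca-1+ and 0.652 ± 0.49 RPKM (SD, n = 5) in Sca-1-, without overlap. Unc5b, the vascular member of the family and a partner of Robo4, was at 21.3, 18.1, 16.2 and 15.3 CPM in Sca-1+ and at 7.32, 0.767, 0, 2.39 and 5.08 CPM in Sca-1-. All Sca-1+ libraries lay above all Sca-1- libraries, but the adjusted p was 0.056 in edgeR, with a log2 fold change of 2.51 ± 0.96, and it was 0.014 without Sca-1- library 14 and 0.038 without Sca-1- library 8. Unc5a was higher in Sca-1+, with means of 7.40 and 0.607 CPM (log2 fold change 3.57 ± 0.72, adjusted p = 0.0026). It shares 34 bases of exon with Hk3 on the opposite strand.

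Among the ligands, 7 of 19 tested were higher in Sca-1+ and 4 were lower, all of them semaphorins. These are 36.8 and 21.1%, against 23.3 and 21.4% of all genes, so the share of lower ligands was that of the background. Of the class 3 semaphorins, the secreted ones, 3 of 6 tested were higher and 2 were lower (50 and 33.3%, against 23.3 and 21.4% of all genes). Sema3f, a ligand of neuropilin-2, was at 79.6, 30.3, 50.3 and 63.5 CPM in Sca-1+ and at 4.74, 1.26, 1.91, 5.24 and 5.12 CPM in Sca-1-. It was 15.2-fold higher in Sca-1+ (log2 fold change 3.93 ± 0.48, adjusted p = 0.00016). Sema3g, also a ligand of neuropilin-2 and known from arterial endothelium, was at 29.1, 18.6, 25.2 and 21 CPM in Sca-1+, while the 5 Sca-1- libraries held 1 read between them, in library 22. With 2676 reads against 1, the ratio of pooled CPM was 2575, with an exact 95% counting interval of 462 to 101749 that takes reads as independent, and the adjusted p was 6.3e-06. Against the floor of 3 reads in each Sca-1- library the fold was 159. Sema3a, which acts through neuropilin-1, was at 42.7, 75.5, 59.1 and 25.9 CPM in Sca-1+ and at 5.7, 1.32, 0.0424, 12.8 and 10.8 CPM in Sca-1-. The ranges were apart, the log2 fold change was 3.04 ± 0.95 (adjusted p = 0.025), and the adjusted p was 0.061 without Sca-1+ library 13, 0.054 without Sca-1+ library 15 and 0.051 without Sca-1- library 8.

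Sema3d and Sema3b were the class 3 members lower in Sca-1+. Sema3d, another secreted ligand of the class, was at 1.16, 0.17, 0.276 and 0.657 CPM in Sca-1+ and at 53.1, 10.3, 18.6, 21.3 and 39.7 CPM in Sca-1-. It was 50.2-fold lower (log2 fold change -5.65 ± 0.74, adjusted p = 0.00023, and -6.27 without Sca-1+ library 7). Its Sca-1- values were lowest in library 10 and highest in library 8. The stromal and osteoblast marker sums of the Sca-1- libraries were 41637, 9287, 3308, 18982 and 17853 CPM. These sums were also highest in library 8 but lowest in library 14, and their part in the level of Sema3d was not tested. Sema3b was sparse, with means of 0.207 and 3.67 CPM and no read in Sca-1- library 14 (log2 fold change -4.14 ± 1.46, adjusted p = 0.041, and -5.88 without Sca-1+ library 19), and its call was lost when any 1 of 7 single libraries was left out, with adjusted p-values of 0.055 to 0.10. Sema3c had means of 1.23 and 0.83 CPM (adjusted p = 0.75).

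Of the membrane-bound semaphorins, 4 of 9 tested were higher in Sca-1+ and 2 were lower. These are 44.4 and 22.2%, against 23.3 and 21.4% of all genes, so the share of lower ones lay near the background. Sema6a, a ligand of Plxna2 and Plxna4, was at 72.8, 72, 59.3 and 81.2 CPM in Sca-1+ and at 10.7, 0.976, 4.36, 6.57 and 7.08 CPM in Sca-1-, a 12.0-fold difference (adjusted p = 0.00039). Sema6b, of the same class, was at 34.4, 20.2, 26 and 31.5 CPM against 2.34, 1.12, 0.0847, 2.79 and 5.49 CPM, an 11.8-fold difference (adjusted p = 0.0037). Both were separated between the fractions in every library. Sema4c, a ligand of Plxnb2, was at 25.4, 9.52, 32.3 and 18.5 CPM in Sca-1+ and at 2.7, 0.488, 1.14, 2.49 and 2.07 CPM in Sca-1- (log2 fold change 3.58 ± 0.53, adjusted p = 0.00047), and it overlaps D430040D24Rik on the opposite strand. Sema7a, the GPI-anchored member that binds Plxnc1 and integrin beta 1, was at 11.7, 9.35, 13.6 and 11.8 CPM in Sca-1+ and at 3.3, 0.697, 0.0424, 0.0332 and 1.42 CPM in Sca-1-. The Sca-1+ values were even, the log2 fold change was 3.42 ± 1.01 (adjusted p = 0.019), it was 4.32 without Sca-1- library 8, and the adjusted p was 0.082 without libraries 19 and 10.

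Sema4d, the ligand of B-type plexins that leukocytes and platelets carry, was at 0, 0.102, 0.655 and 1.55 CPM in Sca-1+ and at 48.4, 47.8, 33.9, 56.5 and 33.3 CPM in Sca-1-. It was 76.7-fold lower in Sca-1+ (log2 fold change -6.26 ± 0.96, adjusted p = 0.00055, and -7.42 without Sca-1+ library 19). Across the Sca-1- libraries it made 18.2 to 24.5% of the semaphorin sum per length. The megakaryocyte and platelet markers there ranged from 24754 to 104054 CPM and the leukocyte markers from 1821 to 3553 CPM, and their part in its level was not tested. Within Sca-1+ it was highest in library 19, which also had the highest leukocyte sum, 52.2 CPM. Sema4b, another class 4 ligand, was at 0.579, 2.28, 0.862 and 0.541 CPM in Sca-1+ and at 12.8, 24.4, 10.8, 7.13 and 4.8 CPM in Sca-1-. It was 11.2-fold lower in Sca-1+ (log2 fold change -3.48 ± 0.65, adjusted p = 0.0017, and -4.16 without Sca-1+ library 13), with no overlap.

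Sema6d, a class 6 ligand that binds Plxna1 and Plxna4, was abundant in both fractions and did not pass the test. It was at 76.2, 39.6, 78.7 and 62.2 CPM in Sca-1+ and at 112, 199, 45.1, 24.3 and 34.9 CPM in Sca-1-, a log2 fold change of -0.37 ± 0.57 (adjusted p = 0.63) that turned positive with library sizes alone, with limma voom and without Sca-1- library 10. The Sca-1- libraries stood in the same order for Sema6d as for the megakaryocyte and platelet markers. Sema4a, a class 4 ligand with roles in immune cells, was at 2.48, 3.3, 3.69 and 8.04 CPM in Sca-1+ and at 1.56, 8.37, 20.5, 111 and 4.07 CPM in Sca-1- (log2 fold change -2.73 ± 1.12, adjusted p = 0.070). Library 16 carried most of that difference, which was -0.99 without it, and the gene holds the microRNA gene Mir7011 on the same strand. Sema5a was at 0 to 1.89 CPM in Sca-1+ and 0.466 to 22.3 CPM in Sca-1- (log2 fold change -3.20 ± 1.25, adjusted p = 0.059). The semaphorins summed to 50.6 ± 8.7 RPKM (SD, n = 4) in Sca-1+ and 29 ± 9.36 RPKM (SD, n = 5) in Sca-1-, ranges that overlapped in 1 library on each side, 13 and 16. In Sca-1+ the sum was spread over Sema3f (15.2 to 25.8%), Sema6a (12.8 to 21.3%), Sema6b (12.4 to 15.4%) and Sema6d (9.74 to 14.1%).

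No Slit or netrin passed the test. Ntn4, a netrin of basement membranes, was at 18.4, 10.7, 15.7 and 36.7 CPM in Sca-1+ and at 21.5, 24.6, 24.2, 20 and 18.8 CPM in Sca-1-, with a log2 fold change of -0.10 ± 0.33 (adjusted p = 0.83) that turned positive with library sizes alone and without Sca-1+ library 13 or 15. It made 80.1 to 95.2% of the netrin sum per length in Sca-1+ and 81.7 to 94.1% in Sca-1-. Ntn1, the classical netrin, had means of 3.24 and 5.10 CPM (adjusted p = 0.27). Slit3 had means of 3.59 and 5.46 CPM (adjusted p = 0.54) and Slit2 of 0.914 and 2.08 CPM (adjusted p = 0.47), and both varied widely within a fraction, Slit3 from 0.51 to 6.96 CPM in Sca-1+ and from 1.65 to 12.3 CPM in Sca-1-.

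Some ligands and receptors known to bind them stood on opposite sides, and others on the same side. Sema7a was 10.7-fold higher in Sca-1+ and its receptor Plxnc1 8.16-fold lower. Sema4d was 76.7-fold lower in Sca-1+ and the B-type plexin Plxnb2 3.41-fold higher, while Plxnb1, its best known receptor, did not pass the test (adjusted p = 0.50). Sema6a was higher together with Plxna2 but opposite to Plxna4, the other receptor it binds. Sema4c and Plxnb2 were both higher, as were Sema3a and its co-receptor Nrp1, and Sema3f and Sema3g with their co-receptor Nrp2. The calls of Sema3a and Sema7a were lost in 6 and 3 settings. Among other partner receptors, Itgb1, the integrin beta 1 gene, had means of 729 and 1684 CPM (adjusted p = 0.052). Cd72, a receptor of Sema4d, had means of 10.3 and 33.8 CPM (adjusted p = 0.091). No protein or binding was measured here.

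Of the members within 2 Mb of each other in the genome (GRCm38, GENCODE M21 positions), 3 pairs were called in opposite directions. Every other such pair held a gene that was not called or not tested. How often neighbouring genes in general are called in opposite directions was not counted, so the pairs are a description. Each pair holds a call that depended on the setting, as Sema3b lost its call in 9 settings, Sema3a in 6 and Robo3 in 2. Robo4 (chr9:37401897-37415115, plus strand) and Robo3 (chr9:37415669-37433246, minus strand) face each other with 553 bp between their 3′ ends, and the log2 ratio of Robo4 to Robo3, with 0.5 CPM added to each, was 7.21 to 7.89 in the Sca-1+ libraries and -0.68 to 3.10 in the Sca-1- libraries. Sema3b (chr9:107597674-107609229) and Sema3f (chr9:107681500-107710475), both on the minus strand, lie 72.3 kb apart. The log2 ratio of Sema3b to Sema3f was -7.23 to -5.79 in Sca-1+ and -2.27 to 1.10 in Sca-1-. On chromosome 5, Sema3d (chr5:12383385-12588948) and Sema3a (chr5:13125414-13602565), both on the plus strand, lie 536 kb apart, and their log2 ratio, Sema3d to Sema3a, was -6.83 to -4.51 in Sca-1+ and 0.71 to 5.14 in Sca-1-. Sema3e follows on the same strand, 423 kb beyond Sema3a, and was not tested. These 3 ratios separated the fractions in every library, which is no separate result, since the pairs were taken for their opposite calls. Ratios of other neighbours separated them too, such as Ntn4 to Plxnc1, at 2.24 to 3.68 in Sca-1+ and -0.19 to 1.37 in Sca-1-. Robo1 and Robo2, 846 kb apart on chromosome 16, were called higher and not called.

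Most of the raised members differed between the fractions by no more than the endothelial markers did. The median log2 fold change of the 13 endothelial markers was 4.50, and Sema3g exceeded it. Plxnd1 (4.54 ± 0.62) lay at it, and Robo4 (4.93 ± 0.48) lay above it but below markers such as Emcn (5.48). Plxna3, at 0 in Sca-1-, is left out here, since its lower bound of 4.71-fold, on a linear scale, is a smaller change than that median. Divided by the endothelial marker sum of the same library, every Sca-1+ library stayed above every Sca-1- library for Robo4 and Sema3g, the latter also with each Sca-1- library set to 3 reads, and 12 of the 15 higher members overlapped. With Esam left out of the sum, a choice made after its levels were seen, Robo4 and Sema3g stayed above, 10 overlapped and for 2 every Sca-1- library was above. Within Sca-1-, Robo4 went from 2.37 CPM in library 10, with a sinusoidal sum of 27.4 CPM, to 16.6 CPM in library 16, with 171 CPM. The arterial sum was also lowest in library 10, at 9.06 CPM, and highest in library 22, at 37.3 CPM. The endothelial sum without Esam was 220.3 and 486.4 CPM in these libraries, again its lowest and highest values. The comparisons are descriptions over 5 libraries, and the measures compared come from the same library.

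**Figure D4:**
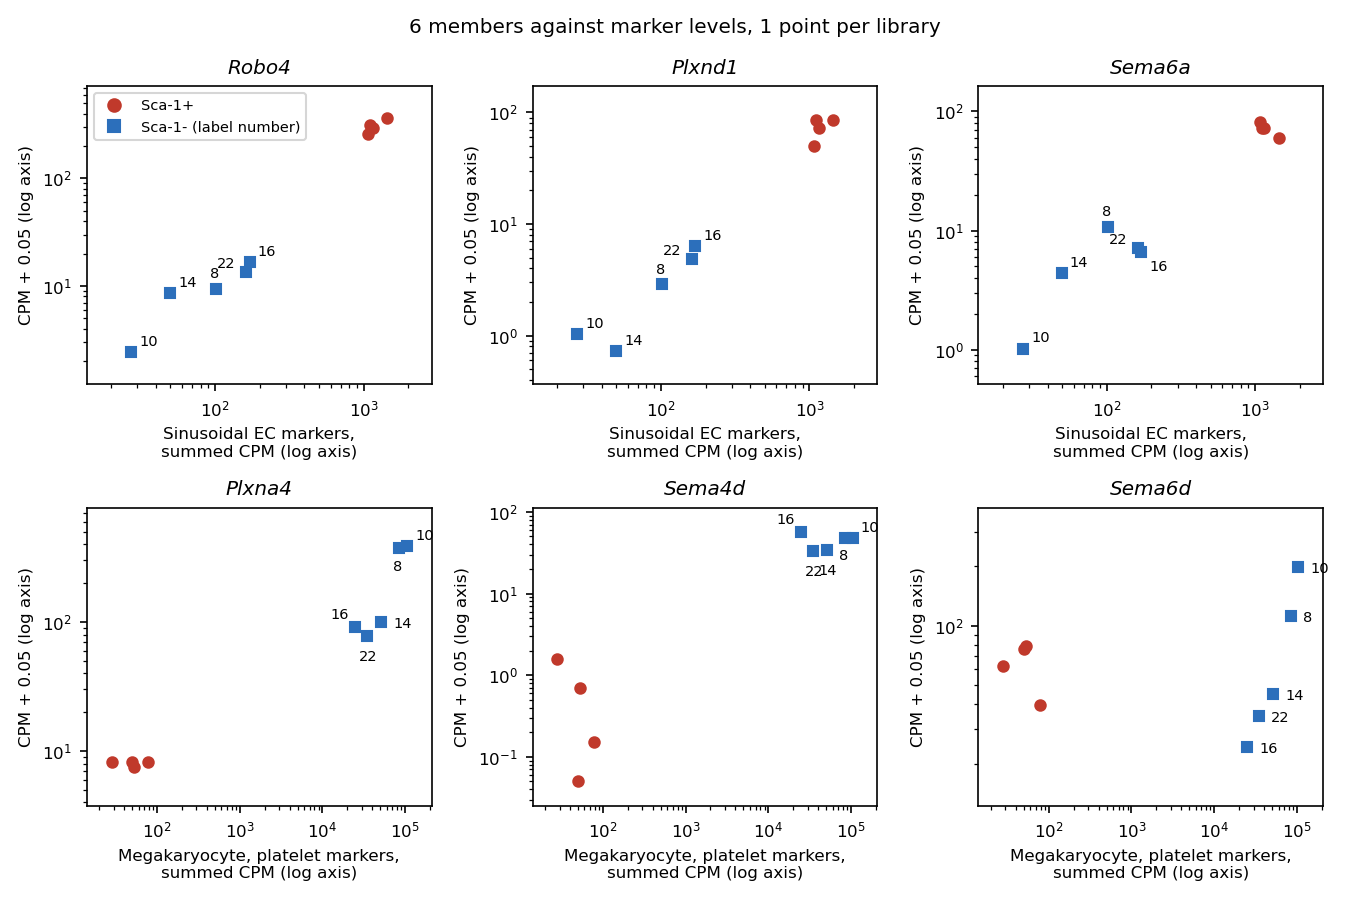
CPM of 6 members, plus 0.05, against the summed CPM of marker genes in the same library, on log axes, 1 point per library, with Sca-1- libraries marked by their label number. Robo4, Plxnd1 and Sema6a are set against the 4 sinusoidal markers and are lowest in libraries 10 and 14, while Plxna4, Sema4d and Sema6d are set against the 12 megakaryocyte and platelet markers, where Sema6d follows the marker order within Sca-1-, Plxna4 is highest in libraries 8 and 10, and Sema4d is level.

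The other genes of these pathways were taken from a list of 54, of which 46 were tested, 21 were higher in Sca-1+ and 8 were lower (45.7 and 17.4%, against 23.3 and 21.4% of all genes, with a median log2 fold change of 1.15). Of the partner receptors and co-receptors, 5 of 9 tested were higher (55.6%, against 23.3% of all genes) and none was lower. Nrp1, the co-receptor of Sema3a and of VEGF, was at 719, 679, 816 and 848 CPM in Sca-1+ and at 6.9, 3.84, 0.805, 16.1 and 7.44 CPM in Sca-1- (log2 fold change 6.76 ± 0.73, adjusted p = 8.6e-05). Nrp2, the co-receptor of Sema3f and Sema3g, was at 87.3, 70.5, 79.1 and 88.2 CPM against 33, 5.51, 1.19, 18.3 and 15 CPM (log2 fold change 2.48 ± 0.69, adjusted p = 0.014). For both neuropilins every Sca-1+ library lay above every Sca-1- library. Mcam, a surface adhesion molecule of ECs and pericytes (log2 fold change 5.67), Itga1, an integrin chain (5.12), and Rnd1, a GTPase that binds plexin tails (4.25), followed among the largest log2 fold changes. The netrin receptor Neo1 had means of 5.46 and 4.82 CPM (adjusted p = 0.91), and Dcc, the classical one, was not tested, with means of 0.0426 and 0.293 CPM. Draxin, a secreted ligand of Dcc and netrins, was lower in Sca-1+ (means of 0.0777 and 61.9 CPM, adjusted p = 0.00021), as were Nck2, an adaptor (log2 fold change -4.38), Sh3bp1, a Rac-regulating protein that plexins bind (-3.29), and Limk1, a kinase of cofilin (-3.16). Among the 33 intracellular effectors tested, 14 were higher and 7 were lower (42.4 and 21.2%, against 23.3 and 21.4% of all genes).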

How the data were processed

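RNA was extracted by the authors from sorted cells and libraries were made with the SMART-Seq v4 low-input kit, which carries no molecular identifiers, so reads include PCR copies. The deposited values are whole-number read counts per gene, not normalized, in 1 table for all 9 libraries. The submitters' processing notes name STAR, featureCounts and mm10. Versions, the annotation release and the use of strand are not given in the sources used here. Groups came from the deposited labels. Tests used edgeR 4.0.16 in R 4.3.3 (filterByExpr at a minimum count of 10 and total of 15, TMM, quasi-likelihood F-test, not robust, two-sided, Benjamini-Hochberg over 15937 genes, threshold 0.05). The scripts were tested on simulated data. Depth was 21581653 to 25959818 counts per library, and counting limits cover counting error only. The lowest chi-square per degree of freedom between libraries of a fraction was 40.7, so no library was counted as a repeat of another. Positions and exon lengths came from GENCODE M21, which holds 45229 of the 46078 identifiers, and upstream sequences from RefSeq, which matched 35 of the 43 protein-coding members. Plxna4 had no entry. Alternatives were other scalings, filters and tests (DESeq2 1.42.0, limma 3.58.1 voom), fits without single libraries, and a fit with libraries of consecutive end numbers as a block. Members, partner genes and marker lists were chosen with earlier results of these data known. Some marker lists are not reported here. Members with a mean of at least 10 CPM in one fraction are given in every library and the others by means or ranges. Of the partners, Nrp1, Nrp2, Dcc and Neo1 are named, with the 4 largest and 4 smallest called log2 fold changes above that level. Figures were drawn with Python 3.11.15 and matplotlib 3.10.9.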

Additional observations from a re-analysis of the deposited data

Results flagged for a closer look

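In 72 groups of libraries, 1 per member tested and fraction, 6 held a library far from the others of its fraction, and chance marks about 1 in 20 groups. On the log2 CPM scale with a prior count of 2, Sca-1+ library 19 was low for Plxna4os1, at 1.44 where the others were at 2.76 to 2.87, and for Robo1, at 0.83 where the others were at 2.71 to 2.80. Library 19 also had the highest neutrophil, leukocyte and monocyte marker sums of the Sca-1+ libraries (764, 52.2 and 168 CPM), and their part in these values was not tested. Sca-1- library 14 was low for Plxna2, at -2.60 with 2 reads where the others were at 0.55 to 1.63, and for Sema3b, at -3.63 with 0 reads where the others were at 1.75 to 2.62. Plxna4 in Sca-1+ library 15 was at 2.91 where the others were at 3.04 to 3.05, a small gap within a narrow range. Sema3g in Sca-1- library 22 was at -3.04, which is 1 read against none in the other Sca-1- libraries at -3.63.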

How the results depend on the processing

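Of 717 values of member genes under 11 alternatives and 9 fits without a single library, 664 kept their sign and their side of the threshold, 33 lost a call, 11 gained one and 9 changed sign. Of the 24 called member rows, 15 kept their call and sign throughout, and Sema3b lost its call in 9 settings, Sema3a and Plxna4os1 in 6, Robo1 in 4, Sema7a in 3, Robo3 in 2 and Plxna1, Plxna3 and Unc5a in 1. Calls were gained by Unc5b in 5 settings, Sema4a in 3, Sema5a in 2 and Plxnb1 in 1. The sign changed in 2 genes that were not called. Ntn4 was at 0.29 with library sizes alone and ran from -0.54 to 0.12 without single libraries. Sema6d was at 0.32 with library sizes alone, 0.08 with limma voom, 0.20 without libraries 19 and 10, 0.29 with the replicate block and 0.10 in the same 6 libraries without it, and ran from -0.69 to 0.18 without single libraries. Library sizes alone moved the median log2 fold change of all genes from 0.07 to 0.433, and its higher and lower calls over all genes numbered 4158 and 2431 instead of 3721 and 3416. The names of Sca-1+ library 15 and Sca-1- library 16 share a token, and those of 13, 14 and 22 share CD452, but the labels do not say that these mark an animal or a batch. With libraries of consecutive end numbers as a replicate block (3 pairs, 6 libraries), 9 member rows were higher, against 13 in those libraries without the block and 16 in all 9. The rows lower numbered 6, 6 and 8 in the same order. Of the 36 member rows 35 were tested in the 6 libraries, where Sema3b had too few reads. Over all genes the calls higher fell too, numbering 2265 with the block, 2768 in those libraries without it and 3721 in all 9, and the calls lower numbered 2075, 2592 and 3416. Under the block the adjusted p was 0.098 for Plxna1, 0.056 for Plxna3, 0.05 for Unc5a, 0.062 for Robo1, 0.11 for Sema3a, 0.062 for Sema7a, 0.18 for Robo3 and 0.088 for Plxna4os1, of which Sema3a, Sema7a, Robo3 and Plxna4os1 were also not called in the 6 libraries without it. The deviations of the pairs from their fraction means correlated at 0.147, 0.148 and 0.042, against at most 0.065 in the 17 other pairs. As the pair of 15 and 16 did not reach 0.1, the numbers were not taken to pair the libraries, and the values over 0.1 are a hint from the data only. The spread between 4 and 5 libraries, a biological coefficient of variation of 0.549, and the low reads of members under 10 CPM limit what could be called.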
